A study of Mus musculus with 10 samples.

Results

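Described here are 39 genes of protein folding and its stress responses, namely the sensors and targets of the unfolded protein response (UPR) of the endoplasmic reticulum (ER) and the cytosolic heat shock proteins. They were taken by symbol from the expression table, where they fill 40 of 55414 rows because the symbol Ddit3 stands on 2 of them, and all 40 rows were among the 20000 genes with the highest mean that were tested. The cells were mpkCCD cells, an immortalized line from the mouse cortical collecting duct on a C57BL/6 background, and RNA-seq was run on 10 samples of them. All samples were polarized on membrane filters for 7 days with the V2 vasopressin receptor agonist dDAVP at 0.1 nM throughout. The intact group (genotype wild type; intact, n = 5) holds 1 sample of the parental line and 2 samples each of intact clone 1 and intact clone 2, which passed through the CRISPR-Cas9 procedure without losing Camk2d. The KO group (genotype Camk2d knockout, n = 5) holds KO 1 to KO 5, which are single-cell-derived clones with 1 sample each. A property of 1 KO clone therefore cannot be told apart from variation in its culture or library. Levels are TPM as made by the authors, a unit that corrects each gene's reads for length and gives every sample 1 common total, so that levels can be compared between genes while the sequencing depth stays unknown.

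In the ER, nascent proteins are folded by lumenal chaperones, glycoprotein-binding lectins and disulfide isomerases, and those that fail are sent to the cytosol for degradation. When unfolded proteins accumulate, the sensors IRE1 (Ern1), PERK (Eif2ak3) and ATF6 set off a response carried by the transcription factors XBP1, ATF4 and the cleaved form of ATF6, which raise chaperones, degradation factors and amino acid metabolism. Heat shock factor 1 (Hsf1) runs the corresponding program for cytosolic chaperones. Secretory and membrane proteins, among them the water channel and the sodium channel subunits of collecting duct principal cells, pass through the ER. XBP1 is also controlled by splicing and ATF4 by translation, which gene-level RNA does not show.

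The knockout and the cell type were checked first. Camk2d, which encodes the delta subunit of calmodulin-dependent kinase II, was 123 to 141 TPM in the intact samples and 19.8 to 29.8 TPM in the KO samples (log2 ratio -2.39, limma adjusted p = 1.2e-06). Of 10 principal cell markers, 7 averaged at least 1 TPM, Aqp2 leading them, while Elf5, Tfap2b and Scnn1b were at or near 0. Their summed level was 4442 to 6214 TPM in intact and 2013 to 4568 TPM in KO samples. Most of that sum was Aqp2, at 3773 to 5502 TPM in intact and 1281 to 3789 TPM in KO samples. The sum therefore does not describe the other markers. Of 5 fibroblast and 4 endothelial markers none averaged 1 TPM, and in the intercalated cell, proximal tubule and leukocyte lists 1 marker each did (Atp6v1b1, Lrp2 and Cd68), with sums of at most 49.3, 15.04 and 9.38 TPM in any sample.

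No member passed the test between KO and intact samples, and the median member was higher and less variable than the median tested gene. Leaving aside the second Ddit3 row, described with the ATF4 branch, the median member averaged 151 TPM, against 6.57 TPM for the median of all tested genes, and its coefficient of variation over the 10 samples was 7.23%, against 19.2% for all tested genes and 11.4% for those with a mean of at least 1 TPM. All members together held 1.14% to 1.18% of the TPM of each sample. Their log2 ratios of KO over intact ran from -0.18 for Chac1 to 0.30 for Bag3 with a median of 0.02, the same as the median of all tested genes, and the widest 95% intervals reached from -0.48 to 0.55. Ratios throughout are on the log2(TPM + 1) scale, which understates the change of low genes. With limma and Benjamini-Hochberg adjustment 0 of 40 rows had an adjusted p under 0.05, against 1 of 20000 genes (0.00500%), which was Camk2d itself, and the smallest adjusted p of a member was 0.580 for Hsf1. At an unadjusted limma p under 0.05 there were 6 members, Hsp90b1, Hsf1 and Bag3 with higher and Pdia6, Hspa1b and Hsp90aa1 with lower means in KO, which is 15% of the rows beside 6.99% of all tested genes. The exact permutation test over the 252 arrangements of 5 against 5 samples also gave 6 members with an unadjusted p under 0.05, beside 1430 of the 20000 genes. In 2 members, Hsp90b1 and Hsf1, the groups did not overlap, which is 5% of the rows beside 1.64% of all genes. In bulk RNA, less of a transcript per cell and fewer cells with it cannot be told apart. The p-values measure the spread between these samples, and intact clones 1 and 2 each enter with 2 of them.

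**Figure D1:**
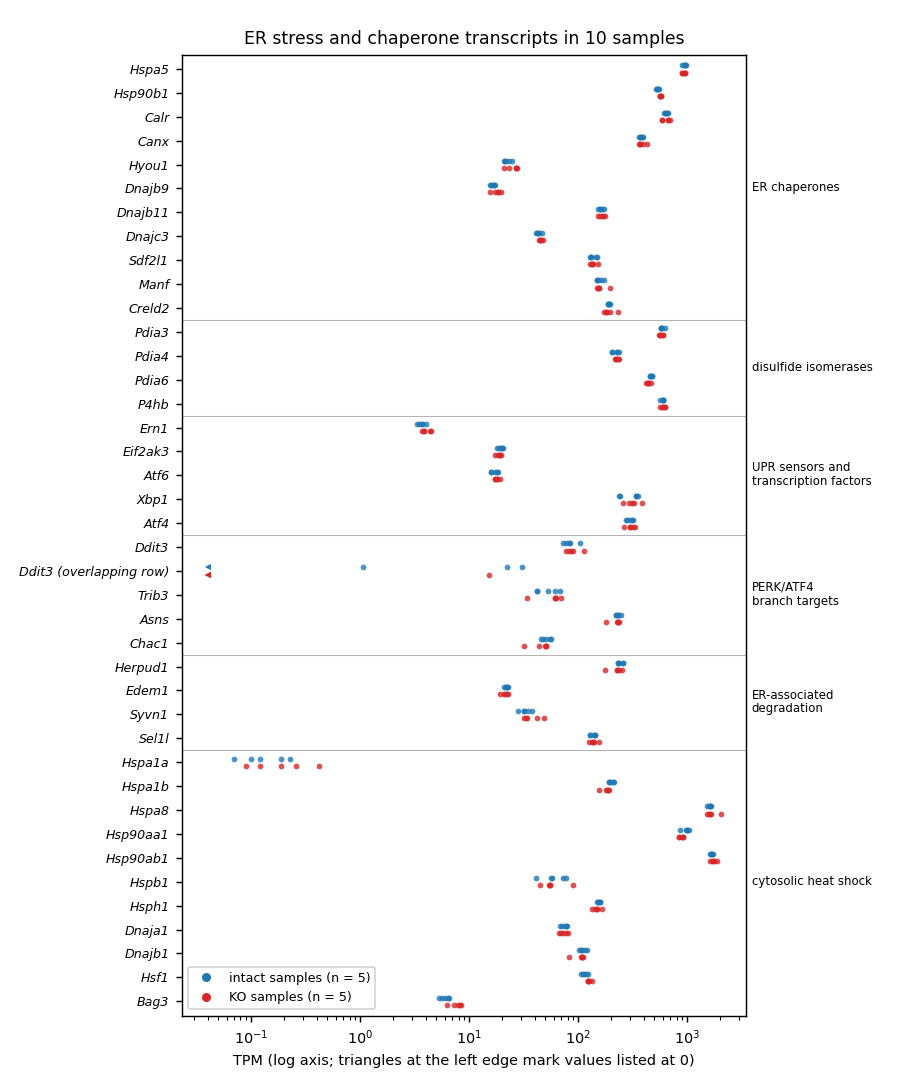
TPM of each member (rows, ordered by role) in the 5 intact samples (blue) and the 5 KO samples (red), on a log axis, where triangles at the left edge mark values listed at 0. In 31 of 39 members the highest sample is less than 1.5 times the lowest, the others being Xbp1, Ddit3, Trib3, Chac1, Syvn1, Hspa1a, Hspb1 and Bag3, and the second Ddit3 row has values from 0 to 30.54 TPM.

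**Figure D2:**
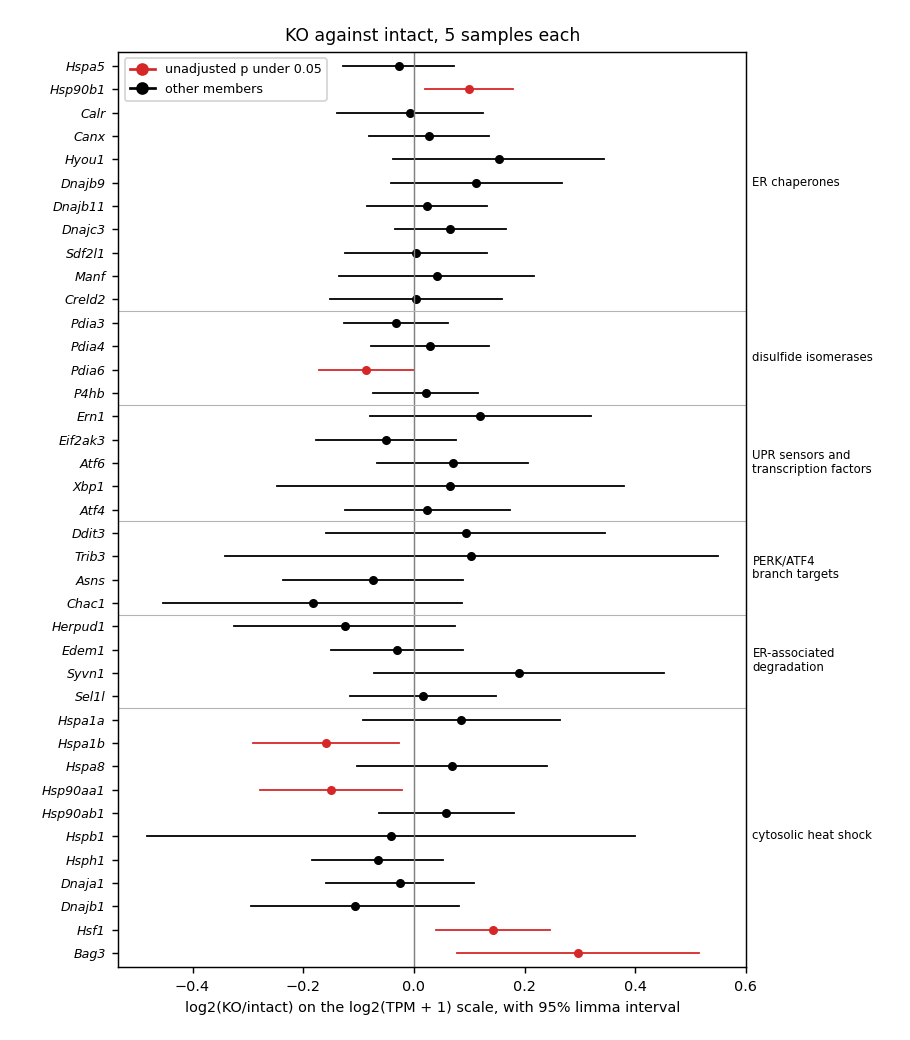
Log2 ratio of KO over intact on the log2(TPM + 1) scale (points) with the 95% limma interval (lines) for 39 members, without the second Ddit3 row. The 6 members with an unadjusted p under 0.05 are red, and for none of the members was the limma adjusted p under 0.05.

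Among the 11 ER chaperones and folding factors, Hsp90b1 alone had a higher level in every KO sample than in any intact sample, and Hspa5, the usual readout of ER stress, was nearly level. Hspa5, the lumenal HSP70 known as BiP, was 976 TPM in the parental line, 929.55 and 948 TPM in intact clone 1, and 953 and 897 TPM in intact clone 2, and 952, 889.92, 938, 949 and 888 TPM in KO 1 to KO 5 (log2 ratio -0.03, 95% interval -0.13 to 0.07, limma adjusted p = 0.915). The groups overlapped, and the highest sample was only 1.10 times the lowest. Hsp90b1, the lumenal HSP90 known as GRP94 (chr10:86690209-86705509 on GRCm38, minus strand), was 522 TPM in the parental line, 541 and 549 TPM in intact clone 1, and 532 and 516 TPM in intact clone 2. In the KO clones it was 562, 579.64, 574, 567 and 566 TPM in KO 1 to KO 5, so that all 5 lay above the highest intact sample, by a small margin (log2 ratio 0.10, 95% interval 0.02 to 0.18, limma adjusted p = 0.646). The two-sided exact permutation test gave p = 0.00794, the smallest that these arrangements can give. Of its 50-base windows 90.2% occur in no other gene.

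The lectins Calr and Canx, which hold glycoproteins in the folding cycle, were 582 to 690.05 TPM and 362 to 423 TPM over the 10 samples. Manf, a secreted factor retained in the ER and released on ER stress, was 148 TPM in the parental line, 148 and 152 TPM in intact clone 1, and 161 and 173 TPM in intact clone 2, and 155, 197, 149, 153 and 153 TPM in KO 1 to KO 5. KO 2 stood above the other 9 samples, which reached 173 TPM at most, and without KO 2 the log2 ratio of Manf moved from 0.04 to -0.03. Creld2, another secreted ER stress product, was highest in KO 1 at 231 TPM and at most 196 TPM elsewhere. Hyou1, the large ER chaperone and exchange factor of Hspa5, had the largest log2 ratio of the group at 0.15 (95% interval -0.04 to 0.34, limma adjusted p = 0.759), with 20.8 to 24.8 TPM in intact and 20.9 to 27.6 TPM in KO samples. The J-domain partners of Hspa5, namely Dnajb9, Dnajb11 and Dnajc3, had log2 ratios of 0.11, 0.02 and 0.07, and Sdf2l1, which works with Dnajb11, had 0.00. The adjusted p of these 4 was at least 0.769 with limma.

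Promoters were searched for the motifs known for these pathways, in RefSeq windows from 250 bases before to 50 bases after the start of each gene (GRCm38.p6), on both strands, and 32 of the 39 members had an entry. Those without one were Atf6, Hsf1, Hsp90aa1, Hsp90ab1, Hspa8, Hyou1 and Manf. The ER stress response element (ERSE) was searched as CCAAT, 9 bases of any kind and CCACG. It was found in 8 of the 32 members, Hspa5, Hsp90b1, Calr, Canx, Dnajc3, Creld2, Pdia6 and Syvn1, against 0.137% of the 27025 genes with a window. Hsp90b1 held it at 2 places, and for Hspa5, Hsp90b1, Calr and Pdia6 the matches are shown in the direction of the motif, with the whole element in capitals and 10 bases on either side.
Hspa5 (chr2:34772015-34772053, plus strand): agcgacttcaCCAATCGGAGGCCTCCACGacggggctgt
Hsp90b1 (chr10:86705628-86705666, minus strand): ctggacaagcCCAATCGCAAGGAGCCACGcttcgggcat
Hsp90b1 (chr10:86705523-86705561, plus strand): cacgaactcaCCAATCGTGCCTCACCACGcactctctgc
Calr (chr8:84847065-84847103, plus strand): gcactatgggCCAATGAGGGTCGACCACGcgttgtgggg
Pdia6 (chr12:17266481-17266519, plus strand): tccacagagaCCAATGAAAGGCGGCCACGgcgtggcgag
Counted from the start, with negative positions before it, the Hspa5 match lay at -65 to -47 and those of Hsp90b1 at -212 to -194 and -107 to -89. The log2 ratios of KO over intact for these 4 genes were -0.03 for Hspa5, 0.10 for Hsp90b1, -0.01 for Calr and -0.09 for Pdia6, none of which passed the limma test. The shorter ERSE-II, searched as ATTGG, 1 base of any kind and CCACG, was found in Dnajb11 and Herpud1, against 0.0444% of genes. The XBP1 and ATF6 site, searched as TGACGTGG, which read on the other strand can overlap the CCACG end of the ERSE, was found in 0 of 32 members and 0.714% of genes. A match is a description of letters in a window, not of binding.

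The disulfide isomerases were abundant and varied least, with a median coefficient of variation of 3.82%. Pdia3, Pdia4 and P4hb had log2 ratios of -0.03, 0.03 and 0.02, within intervals no wider than -0.13 to 0.14. Pdia6, which also acts on the sensors IRE1 and PERK, was 461 TPM in the parental line, 471 and 477 TPM in intact clone 1, and 457 and 459.65 TPM in intact clone 2, and 438, 416, 462, 437 and 439 TPM in KO 1 to KO 5. Its KO mean was lower (log2 ratio -0.09, 95% interval -0.17 to 0.00, limma adjusted p = 0.711), but KO 3 lay within the intact range. KO 2 was the lowest sample. Pdia4 was 206 TPM in both samples of intact clone 2 and 217 to 235 TPM in the other 8 samples (clone 2 against clone 1, log2 ratio -0.14, limma adjusted p = 0.121).

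The sensors were low and did not separate the groups, and Xbp1 was lowest in both samples of intact clone 1. Ern1, Eif2ak3 and Atf6 were 3.29 to 4.43 TPM, 17.3 to 20.5 TPM and 15.9 to 19.3 TPM, with log2 ratios of 0.12, -0.05 and 0.07. Xbp1, whose RNA is spliced by IRE1, was 336 TPM in the parental line, 234 and 241 TPM in intact clone 1, and 349.95 and 336 TPM in intact clone 2, and 289, 255, 383, 309 and 321 TPM in KO 1 to KO 5. Both samples of intact clone 1 lay below all other samples, KO 2 was the next lowest and KO 3 the highest. Between KO and intact samples the log2 ratio of Xbp1 was 0.07 (95% interval -0.25 to 0.38, limma adjusted p = 0.938). Between intact clone 2 and intact clone 1 it was 0.53 (standard error 0.03, limma adjusted p = 0.0927), past 0.05 in neither that contrast nor the comparison of 8 cell lines (limma F-test, adjusted p = 0.0550). Atf4, whose protein is made when PERK or another kinase phosphorylates eIF2 alpha, was 297 TPM in the parental line, 276 and 279 TPM in intact clone 1, and 311 and 315 TPM in intact clone 2. In the KO clones Atf4 was 329, 260.45, 301, 320.45 and 295 TPM in KO 1 to KO 5, the lowest value of all samples in KO 2 and the highest in KO 1, with a log2 ratio of 0.02 (95% interval -0.13 to 0.17).

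Among the targets of the PERK and ATF4 branch KO 2 was the lowest sample for Trib3, Asns and Chac1, and the coefficients of variation over the 10 samples were 22.1% for Trib3, 14.5% for Ddit3, 14.1% for Chac1 and 7.88% for Asns. Their promoters, with that of Herpud1, were the 4 among 32 members that held the CCAAT/enhancer-binding protein and ATF response element (CARE), searched as TGATGNAA, where N is any base. The CARE was found in 4.51% of the 27025 genes. The matches are shown in the direction of the motif, with the element in capitals and 11 bases on either side, because KO 2 was the lowest of the 10 samples in all 4 genes.
Trib3 (chr2:152344028-152344057, plus strand): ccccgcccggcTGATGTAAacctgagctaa
Asns (chr6:7693214-7693243, minus strand): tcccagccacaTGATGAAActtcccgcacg
Chac1 (chr2:119351038-119351067, minus strand): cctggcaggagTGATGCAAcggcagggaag
Herpud1 (chr8:94386306-94386335, minus strand): ggggtgcgggcTGATGCAAcccgccgtggt
The matches began at position -193 in Chac1, -112 in Herpud1 and -23 in Asns, before the start, and at position 15 in Trib3, after it. In Herpud1 the ERSE-II lay apart from the CARE, at -52 to -42, and is shown with 9 bases on either side.
Herpud1 (chr8:94386368-94386396, plus strand): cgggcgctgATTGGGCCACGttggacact
Among the 311 other tested genes with a CARE in the window, KO 2 was the lowest of the 10 samples in 52 (16.7%), beside 13.8% of all 20000 tested genes, and among the 234 of them with a mean of at least 1 TPM in 45 (19.2%), beside 17.7% of all genes with such a mean. Of other tested genes, KO 2 was lowest in 3 of 8 with an ERSE-II (37.5%) and 0 of 11 with an ERSE. With the XBP1 and ATF6 site it was lowest in 21 of 112 (18.8%).

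Trib3, a pseudokinase raised by ATF4, was 67.9 TPM in the parental line, 42.1 and 41.5 TPM in intact clone 1, and 61.6 and 52.8 TPM in intact clone 2. In the KO clones Trib3 was 61.4, 33.9, 69.4, 62.3 and 61.8 TPM in KO 1 to KO 5. KO 2 lay below every other sample, both samples of intact clone 1 were next, and KO 3 was the highest at 69.4 TPM. Chac1, which degrades glutathione, was 55.7 TPM in the parental line, 47.2 and 45.8 TPM in intact clone 1, and 54.7 and 50.5 TPM in intact clone 2, and 50.7, 31.8, 49.1, 50.3 and 43.5 TPM in KO 1 to KO 5. Its KO 2 value was 73.2% of the next lowest, which was that of KO 5. Asns, the enzyme that makes asparagine, was 246 TPM in the parental line, 224 and 221 TPM in intact clone 1, and 232 and 233 TPM in intact clone 2, and 235, 179, 229.56, 232 and 227 TPM in KO 1 to KO 5. The other 9 samples stayed between 221 and 246 TPM, and the KO 2 value was 81.0% of the lowest of them. Between KO and intact samples the log2 ratios were 0.10 for Trib3 (95% interval -0.34 to 0.55), -0.07 for Asns (-0.24 to 0.09) and -0.18 for Chac1 (-0.45 to 0.09), with limma adjusted p of 0.930, 0.834 and 0.785. Without KO 2 they moved to 0.28, -0.00136 and -0.07, with limma adjusted p of 0.688, 0.998 and 0.838.

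Ddit3, the transcription factor CHOP of the pro-apoptotic arm, stands on 2 rows. The main row was 104 TPM in the parental line, 77.3 and 73.1 TPM in intact clone 1, and 81.7 and 83.7 TPM in intact clone 2, and 113, 81.7, 89.7, 86.6 and 77.4 TPM in KO 1 to KO 5. The parental line and KO 1 were highest and the groups overlapped (log2 ratio 0.09, 95% interval -0.16 to 0.35, limma adjusted p = 0.871). The second row (ENSMUSG00000116429, chr10:127290829-127293753 on GRCm38) overlaps the first, and its only transcript in GENCODE M21, of 105 bases, shares all of its 50-base windows with the first. It was 1.07 TPM in the parental line, 30.54 and 22.2 TPM in intact clone 2, 15.3 TPM in KO 4, and listed at 0 in the other 6 samples. Reads of the 2 rows cannot be told apart by these windows, and with the rows summed the log2 ratio of Ddit3 was -0.02 (limma adjusted p = 0.989). The summed row was 102 TPM in KO 4 and 112.2 and 105.89 TPM in intact clone 2, beside 104.84 TPM in the parental line. The second row made up 27.2% and 20.9% of the sum in intact clone 2. TPM corrects reads for length, and the longest transcript of the main row has 969 bases. Reads placed on the short second row therefore weigh more, and the sum is not a plain level of Ddit3.

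In ER-associated degradation, Herpud1 had the lowest adjusted p among the KO clones of all members, and KO 2 was its lowest sample. Herpud1, a membrane scaffold of the degradation complex (chr8:94386438-94395377 on GRCm38, plus strand), was 236 TPM in the parental line, 229 and 230.14 TPM in intact clone 1, and 258 and 259.81 TPM in intact clone 2. In the KO clones Herpud1 was 253, 175, 236, 226 and 228 TPM in KO 1 to KO 5. KO 2 was at 77.5% of the next lowest sample, and intact clone 2 was highest. Its log2 ratio between KO and intact was -0.13 (95% interval -0.32 to 0.07, limma adjusted p = 0.811), and without KO 2 it was -0.04 (limma adjusted p = 0.876). Syvn1, the ubiquitin ligase of the complex, was 28.1 to 37.6 TPM in intact and 31.7 to 48.4 TPM in KO samples, with KO 1 highest (log2 ratio 0.19, 95% interval -0.07 to 0.45), and without KO 1 the log2 ratio of Syvn1 was 0.10. Its partner Sel1l was 125 to 155 TPM, KO 2 being lowest and KO 1 highest, and Edem1, which directs glycoproteins to degradation, was 19.4 to 22.6 TPM. Their log2 ratios were 0.02 and -0.03.

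Of the 11 cytosolic heat shock members, 4 had an unadjusted limma p under 0.05, 2 in each direction, beside 6.99% of all tested genes and 8.44% of those with a mean of at least 1 TPM, and none passed adjustment. Hsf1, the heat shock transcription factor (chr15:76477422-76501913 on GRCm38, plus strand), was 122 TPM in the parental line, 113 and 117 TPM in intact clone 1, and 105.82 and 110.42 TPM in intact clone 2. In the KO clones Hsf1 was 134, 122, 126, 123 and 122 TPM in KO 1 to KO 5. All 5 KO values lay above the intact ones, the closest being KO 2 at 122.28 TPM against 122.19 TPM in the parental line (log2 ratio 0.14, 95% interval 0.04 to 0.25, limma adjusted p = 0.58). The two-sided exact permutation test gave p = 0.00794, a value fixed by the lack of overlap. Bag3, a co-chaperone induced by HSF1, was 6.41 TPM in the parental line, 5.64 and 6.53 TPM in intact clone 1, and 5.30 and 5.98 TPM in intact clone 2, and 6.20, 7.24, 7.89, 8.19 and 8.4 TPM in KO 1 to KO 5. KO 1 lay within the intact range and the other 4 clones above it (log2 ratio 0.30, 95% interval 0.08 to 0.52, limma adjusted p = 0.594).

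Hsp90aa1, the inducible cytosolic HSP90, was 864 TPM in the parental line, 985 and 1001 TPM in intact clone 1, and 983 and 1027 TPM in intact clone 2. In the KO clones Hsp90aa1 was 836, 835, 905, 910.15 and 891 TPM in KO 1 to KO 5. The 4 samples of the intact clones were above all KO samples, but the parental line lay among the KO clones (log2 ratio -0.15, 95% interval -0.28 to -0.02, limma adjusted p = 0.659). The constitutive Hsp90ab1 was 1610.11 to 1723 TPM in intact and 1625 to 1855 TPM in KO samples (log2 ratio 0.06). Hspa1b, an inducible HSP70, was 198 TPM in the parental line, 214 and 207 TPM in intact clone 1, and 190.36 and 193 TPM in intact clone 2, and 184, 156, 179, 189 and 191 TPM in KO 1 to KO 5 (log2 ratio -0.16, 95% interval -0.29 to -0.03, limma adjusted p = 0.651). KO 5 lay within the intact range, at 191 against a lowest intact value of 190.36 TPM, and KO 2 was the lowest of all samples. Its near-identical neighbour Hspa1a was at 0.42 TPM or less in every sample. Only 37.7% of the 50-base windows of Hspa1b and 33.7% of those of Hspa1a occur in no other gene, so how their reads were divided is uncertain.

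Hspa8, the constitutive cytosolic HSP70, was 1507 TPM in the parental line, 1622 and 1642 TPM in intact clone 1, and 1589 and 1625 TPM in intact clone 2, and 1645, 2018, 1528, 1597 and 1628 TPM in KO 1 to KO 5. KO 2 stood at 122.7% of the next highest sample, while the other 9 lay between 1507 and 1645 TPM. Hspb1, the small heat shock protein HSP25, had the widest ratio of highest to lowest sample (2.16) among members above 1 TPM with a row of their own. It was 41.1 TPM in the parental line, 77.7 and 72.8 TPM in intact clone 1, and 56.6 and 58.0 TPM in intact clone 2, and 54.0, 88.8, 44.8, 55.3 and 55.6 TPM in KO 1 to KO 5. KO 2 and both samples of intact clone 1 were highest and the parental line and KO 3 lowest, so that the ratio between KO and intact was near 0 with a wide interval (log2 ratio -0.04, 95% interval -0.48 to 0.40, limma adjusted p = 0.981). Hspa8, Hspb1 and Hsp90aa1 have processed copies in the genome, and 60.6%, 49.9% and 52.5% of their windows are their own. Those copies were low, at most 6.84 TPM for Gm15459, 1.53 TPM for Hsp25-ps1 and 3.26 TPM for Gm12346. Dnajb1, the J-domain partner of HSP70, was 81.5 TPM in KO 1 and 101 to 120.22 TPM elsewhere. Dnaja1 and Hsph1, the HSP110 exchange factor, were 66.7 to 80.2 TPM and 134 to 167 TPM, with log2 ratios of -0.02 and -0.07.

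The heat shock element (HSE) was searched as 3 alternating blocks of GAA and TTC with 2 bases of any kind between blocks. It was found in 1 of 32 members, Hsph1, against 0.662% of genes, and it is shown in the direction of the motif with the element in capitals.
Hsph1 (chr5:149636280-149636308, minus strand): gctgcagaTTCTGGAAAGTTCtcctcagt
KO 2 had the lowest Hsph1 level at 134 TPM and KO 4 the highest at 167 TPM.

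The differences among cell lines were then tested with limma F-tests over the 8 lines, in which the residual spread rests on the duplicate samples of the 2 intact clones (2 residual degrees of freedom before moderation) and is assumed to hold for the KO clones. Whether these duplicates are separate cultures or repeat libraries of 1 culture is not stated, and in the latter case the residual spread is technical only. Over the 8 lines 2 of 40 rows had an adjusted p under 0.05, Herpud1 (0.0437) and the second Ddit3 row (0.0352), which is 5% beside 3.60% of all tested genes. Among the 5 KO clones there were 3, Herpud1 (adjusted p = 0.0349), Asns (0.0472) and the second Ddit3 row (0.0451), which is 7.5% beside 4.90% of all tested genes. With the second Ddit3 row left aside, 1 of 39 members was called over the lines and 2 among the KO clones, beside the same shares of all genes. When genes with a mean below 1 TPM were left out, the members called were 5 of 39 rows over the lines (12.8%, beside 7.65% of all genes tested) and 11 among the KO clones (28.2%, beside 11.8%). With robust moderation they were 5 (12.5%, beside 6.00%) and 7 (17.5%, beside 8.29%). Hspb1 and Xbp1 came next over the lines, with adjusted p of 0.0529 and 0.0550 by the limma F-test. Without KO 2, no member passed among the remaining KO clones, Herpud1 and Asns having adjusted p of 0.169 and 0.669 by limma, and the second Ddit3 row alone passed over the lines, beside 2.17% and 1.92% of all tested genes. Without any 1 sample of an intact clone, no gene of the 20000 passed either F-test.

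Between intact clone 2 and intact clone 1, 0 of 40 rows passed with limma, beside 0.0250% of all tested genes, and 17 (42.5%) had an unadjusted p under 0.05, beside 17.1% of all tested genes and 21.1% of those with a mean of at least 1 TPM. The largest differences of the members, after the second Ddit3 row, were those of Xbp1 (log2 ratio 0.53), Trib3 (0.44) and Hspb1 (-0.39), with limma adjusted p of 0.0927, 0.188 and 0.121. These clones both carry Camk2d. Between KO and intact samples the log2 ratios of Xbp1, Trib3 and Hspb1 were 0.07, 0.10 and -0.04. These genes were picked for their difference between the intact clones, so their ratios in both contrasts cannot be compared in size.

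**Figure D3:**
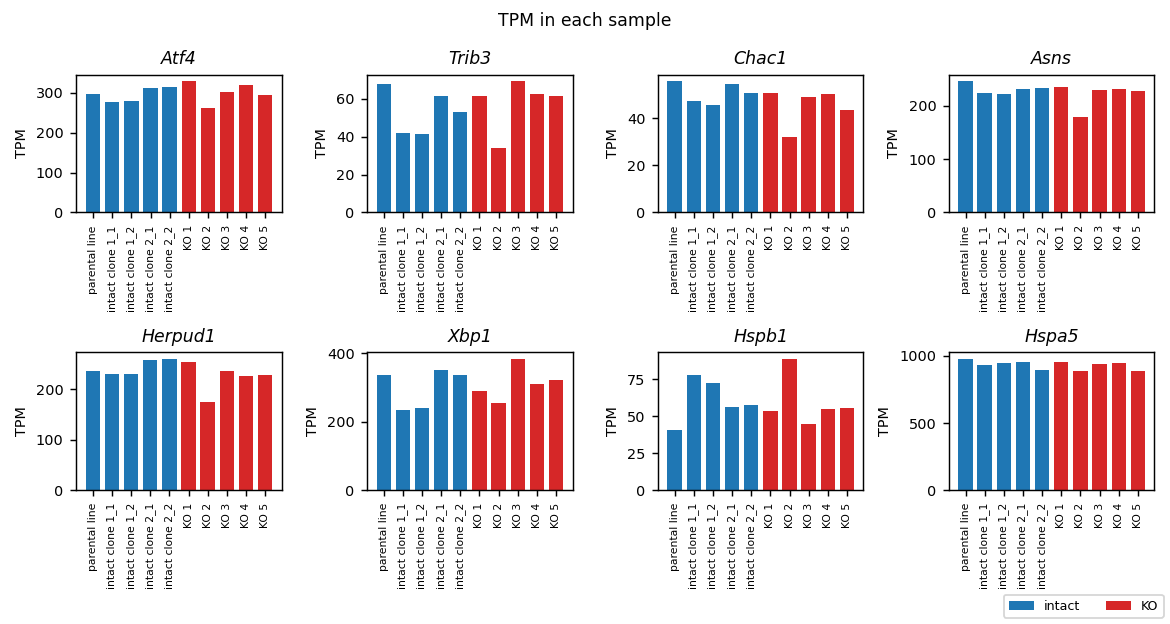
TPM in each of the 10 samples (bars from 0, intact blue, KO red, no error bars because each bar is 1 sample) for Atf4, 3 of its targets, Herpud1, Xbp1, Hspb1 and Hspa5. KO 2 is lowest for Trib3 (33.9), Chac1 (31.8), Asns (179) and Herpud1 (175), intact clone 1 is low for Xbp1 (234 and 241) and Trib3 (42.1 and 41.5), and Hspa5 stays between 888 and 976 TPM.

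KO 2 was the lowest of the 10 samples in 12 of 40 member rows (30%), beside 13.8% of all tested genes and 17.7% of those with a mean of at least 1 TPM. The 12 were Calr, Canx, Pdia6, Atf4, Trib3, Asns, Chac1, Herpud1, Sel1l, Hspa1b, Hsp90aa1 and Hsph1. For Calr, Canx and Hsp90aa1 the gap was small, KO 2 reaching 99.3%, 99.7% and 99.8% of the next lowest sample. KO 2 was the highest sample in 5 rows (12.5%), Hsp90b1, Manf, Hspa8, Hspb1 and Dnaja1, beside 24.9% of all tested genes and 29.2% of those with a mean of at least 1 TPM. The median deviation of the 4 ATF4 branch members, the second Ddit3 row left aside, from their 10-sample mean was -0.45 on the log2 scale in KO 2, -0.08 and -0.14 in the samples of intact clone 1, -0.05 in KO 5, and 0.01 to 0.25 in the other 6 samples. In KO 2 the single deviations were -0.66 for Trib3, -0.56 for Chac1 and -0.33 for Asns, but -0.07 for Ddit3. These 4 held 0.0326% of the TPM in KO 2 and 0.0381% to 0.0473% elsewhere, and the degradation members held 0.0354% in KO 2 and 0.0417% to 0.0476% elsewhere. ER chaperones, in contrast, held 0.317% to 0.333% in every sample, with KO 2 at 0.318%. The share of the degradation members was mostly that of Herpud1, and their median deviation in KO 2 was -0.10. Syvn1 and Edem1 were 33.4 and 21.0 TPM in KO 2, against 28.1 to 48.4 and 19.4 to 22.6 TPM elsewhere. Of the 7 principal cell markers with a mean of at least 1 TPM, KO 2 was lowest in Avpr2 (114 TPM, against 192 to 264 TPM elsewhere) and Scnn1a (141 TPM, against 146 to 260.38 TPM) and highest in Hsd11b2 (115 TPM, against 11.5 to 43.1 TPM). Cd68 was 9.05 TPM in KO 2 and 3.51 to 5.54 TPM elsewhere, while the other 4 leukocyte markers were at 0.62 TPM or less in every sample. The part of these markers in the values of KO 2 was not tested. The highest sample was KO 1 in 13 of 40 rows, among them Ddit3, Creld2, Syvn1, Sel1l and Hsf1, beside 15.5% of all tested genes.

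**Figure D4:**
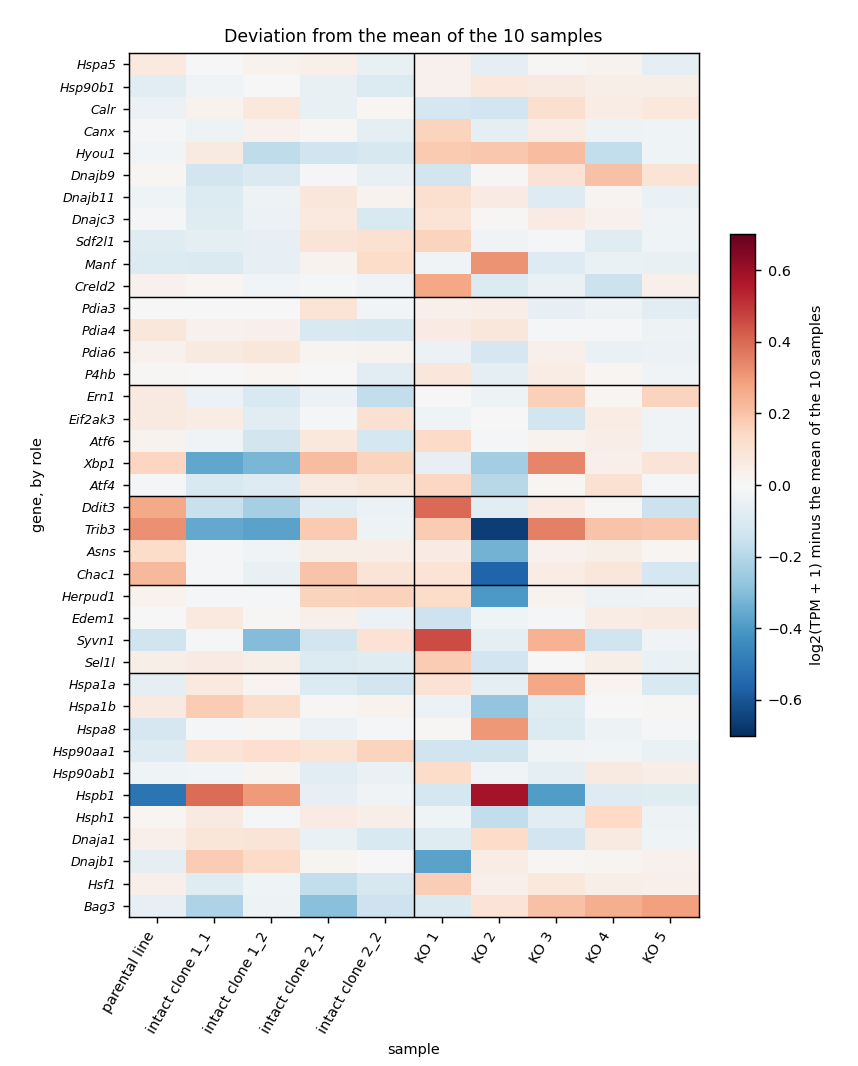
Deviation of log2(TPM + 1) from the mean of the 10 samples, blue below and red above, for 39 members (rows, by role) and 10 samples (columns, intact left of the line). Within each of the rows Trib3, Chac1, Herpud1 and Asns the darkest blue cell is that of KO 2. At Hspb1, Hspa8 and Manf KO 2 is red, and intact clone 1 is blue for Xbp1 and Trib3 in both samples.

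Other genes of the same pathways, 130 in 5 lists, were also compared between KO and intact samples. None passed with limma, and 7 of 124 tested genes had an unadjusted p under 0.05, beside 6.99% of all tested genes. In ER folding and translocation (28 tested) these were Sec63 and Sec61g. Sec63, which recruits Hspa5 to the translocon, was 46.7 to 51.9 TPM in intact and 52.0 to 60.9 TPM in KO samples without overlap (log2 ratio 0.20, 95% interval 0.09 to 0.31, limma adjusted p = 0.481), and its partner Sec62 had the lowest ratio (log2 ratio -0.22, 95% interval -0.49 to 0.06, limma adjusted p = 0.759), with 81.0 TPM in KO 2 and 112 to 147 TPM elsewhere. Without KO 2 the log2 ratio of Sec62 was -0.10. In ER-associated degradation (17 tested) Os9 and Man1b1 had higher KO means. Man1b1, a mannosidase that marks glycoproteins, was 44.3 to 49.3 TPM in intact and 49.7 to 57.0 TPM in KO samples (log2 ratio 0.19, 95% interval 0.08 to 0.30, limma adjusted p = 0.524). Ube2g2 had the lowest ratio there, at -0.08. Sec63 and Man1b1, 1 of 28 and 1 of 17 in their lists, were the only genes of the 5 lists without overlap, beside 1.64% of all tested genes. Among the regulators of the response (14 tested of 17) Tmbim6, an ER membrane protein that restrains IRE1, was 376 to 445 TPM in intact and 432 to 518 TPM in KO samples (log2 ratio 0.23, 95% interval 0.10 to 0.37, limma adjusted p = 0.524), and Eif2ak2 had the lowest ratio at -0.08, which was -0.13 without 1 sample of intact clone 1 and -0.02 without KO 5.

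Of 30 other ATF4 targets 29 were tested, and Psat1 and Shmt2, of serine and glycine metabolism, had an unadjusted p under 0.05, with lower and higher KO means. The extreme ratios were those of Psph at 0.25 and Nupr1 at -0.52 (95% interval -1.08 to 0.03, limma adjusted p = 0.741). Nupr1, a stress-induced chromatin protein, was 191 TPM in the parental line, 148 and 156 TPM in intact clone 1, and 257 and 269.76 TPM in intact clone 2, and 163, 158, 145, 74.5 and 178 TPM in KO 1 to KO 5, so that intact clone 2 was highest and KO 4 lowest. Without KO 4 the log2 ratio of Nupr1 was -0.30, and that of Psph was 0.17 without KO 2 and 0.15 without 1 sample of intact clone 1. KO 2 was the lowest sample in 11 of the 29 (37.9%), beside 13.8% of all tested genes and 17.7% of those with a mean of at least 1 TPM, and the highest in 3. In the other lists it was the lowest in 9 of 28 genes of ER folding and translocation (32.1%), 3 of 14 regulators (21.4%), 9 of 36 heat shock genes (25%) and 2 of 17 degradation genes (11.8%). Of the 11 ATF4 targets lowest in KO 2, Sesn2, Cth and Sars were chosen for print after their values were seen. They were 22.4, 9.05 and 268 TPM in KO 2, against 42.4 to 57.3, 15.6 to 23.7 and 366 to 434 TPM in the other samples. In others of the 11 the gap to the next lowest sample was small. KO 2 and that sample were at 328.48 and 333.58 TPM for Cebpb, 2.5 and 2.59 TPM for Atf5, and 39.63 and 41.23 TPM for Gdf15. The ATF4 targets highest in KO 2 were Atf3, Slc7a1 and Psph, at 42.9, 88.5 and 39.4 TPM. Of 38 other heat shock genes and cytosolic co-chaperones 36 were tested, with no unadjusted p under 0.05 by limma. The extreme ratios were 0.27 for Hspb6 and -0.24 for Dnajb2, which became 0.16 and -0.14 without KO 2, and KO 2 was the highest sample in 18 of the 36 (50%), beside 24.9% of all tested genes and 29.2% of those with a mean of at least 1 TPM. KO 2 was an extreme sample in many genes outside these lists as well, and its part in these results was not tested apart from leaving it out.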

How the data were processed

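RNA-seq was run on 10 samples, each counted as a sample in its group from the labels. Per the study's methods, the authors prepared full-length cDNA libraries with a kit that does not mark the strand, aligned paired 50-base reads with STAR to an Ensembl mouse annotation and quantified genes with RSEM. The authors deposited TPM per gene with 2 decimals, in 1 column per sample (0 columns were left unused). The authors tested expected counts with edgeR. These were not used here, so a test on a log scale was used, and no interval or detection limit that needs depth is given.

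Of all genes, the 20000 highest by mean TPM entered the test. Their log2(TPM + 1) was fitted with limma 3.58.1 in R 4.3.3 (lmFit, eBayes with trend). Benjamini-Hochberg adjustment ran over all tested genes, and calls needed an adjusted p under 0.05. The KO and intact groups (5 against 5) were compared without covariates, single members also by a two-sided exact permutation test, and cell lines in a fit with 8 lines. The procedure was tested on simulated data first. The members and lists were chosen with earlier results of these data known. All 39 members are named. Of each list of other pathway genes, those past the threshold and the highest and lowest log2 ratio with a mean of at least 1 TPM are named, and Sec61g, Os9, Psat1, Shmt2, Atf3 and Slc7a1 were added because the counts they belong to are small. Windows of 50 bases were compared in GENCODE M21 on GRCm38, and promoter sequences are RefSeq's. GENCODE M21 is another release than the Ensembl annotation from which the authors made the TPM. Python 3.11.15, pandas 2.3.3, numpy 2.4.6 and matplotlib 3.10.9 were used for the rest. Alternatives were pseudocounts of 0.1 and 0.5, other filters on low values, median-ratio and quantile scaling, limma without trend or robust, averaging each cell line, a random effect for the line (statmod 1.5.0, consensus correlation 0.605), summed rows for Hspa1a with Hspa1b and for the Ddit3 rows, other thresholds, and leaving out samples. The summed Ddit3 rows, the fit of lines without KO 2 and the threshold of 0.01 were chosen after seeing the data.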

Additional observations from a re-analysis of the deposited data

Results flagged for a closer look

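In 10 of 80 tests, 1 for each member row and group of 5 samples, a sample stood apart from the rest of its group by Dixon's criterion (gap over range above 0.71), which is 12.5%, beside 10.8% of such tests over all tested genes and 8.43% over those with a mean of at least 1 TPM. The nominal rate for 5 independent values is about 1 in 20, but the intact group holds 2 pairs of duplicates. Of the 10, 4 concerned KO 2 (10% of the member rows, beside 5.73% of all tested genes), with Manf at 197.08 TPM and Hspa8 at 2017.92 TPM above the other KO clones (next 155.31 and 1644.66 TPM), and Trib3 at 33.92 TPM and Asns at 179 TPM below them (next 61.36 and 227.43 TPM). KO 1 stood apart in Dnajb1 (81.52 TPM, next 106.66) and in Hsf1 (134.44 TPM, next 125.62). KO 4 did so in the second Ddit3 row, at 15.32 TPM where the other KO clones are listed at 0. Among intact samples the parental line was low in Hsp90aa1 (863.77 TPM, next 982.67), 1 sample of intact clone 2 was high in Pdia3 (618.37 TPM, next 580.41) and the other was low in P4hb (564.52 TPM, next 594.98). The samples of intact clone 2 in Pdia3 and P4hb stood apart from their own duplicate as well. The causes were not tested.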

How the results depend on the processing

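No member passed the limma test between KO and intact samples in any of the 24 settings, with the lowest adjusted p of a member from 0.439 to 0.9998. Hspa1a entered 22 of the settings and the second Ddit3 row 23, and 25 of 40 rows kept 1 sign in every setting they entered. In the other 15 the log2 ratio took the other sign in 40 values, none larger than 0.063 in size. Under median-ratio scaling these were Canx (-0.00166), Dnajb11 (-0.00517), Sdf2l1 (-0.0250), Creld2 (-0.0245), P4hb (-0.00746), Atf4 (-0.00419) and Sel1l (-0.0127), and the median of the members became -0.00632. Under quantile normalization they were Hspa5 (0.00493), Calr (0.00727), Sdf2l1 (-0.0151) and Sel1l (-0.00524). With 1 value per cell line they were Creld2 (-0.00136) and Hspb1 (0.0474), and with a random effect for the line Hspb1 (0.0163). With the Ddit3 rows summed it was Ddit3 (-0.0200). Leaving out 1 sample at a time gave log2 ratios of -0.00841 to 0.0756 for Atf4, -0.0361 to 0.0250 for Calr, -0.00832 to 0.0480 for Canx, -0.0630 to 0.0426 for Creld2, -0.0593 to 0.00631 for Dnaja1, -0.00232 to 0.0483 for Dnajb11, -0.0502 to 0.00105 for Edem1, -0.192 to 0.0521 for Hspb1, -0.0321 to 0.0787 for Manf, -0.0355 to 0.0302 for Sdf2l1, -0.0260 to 0.0508 for Sel1l and -0.0167 to 0.135 for Xbp1. Over the 8 cell lines the members called were 2, and became 5 among genes with a mean of at least 1 TPM, 5 with robust moderation, 1 without trend (beside 7.65%, 6.00% and 2.26% of all genes tested), 0 at an adjusted p under 0.01 (0.865%), and 0 to 1 in the 5 fits that left out 1 sample of an intact clone or KO 2. Among the 5 KO clones they were 3, and became 11, 7, 0 and 0 in the same order (beside 11.8%, 8.29%, 2.41% and 0.890%), 5 with quantile normalization (beside 5.12%), and 0 in those 5 fits, in which no gene passed without a sample of an intact clone and 2.17% did without KO 2. Leaving out the other KO clones was not run for the cell lines. Leaving out 1 sample of an intact clone leaves 1 duplicate pair for the spread. Between the intact clones 0 became 2 among genes with a mean of at least 1 TPM and 2 with robust moderation (beside 1.86% and 0.955%). For the other changes the cause was not tested. The unknown depth means that counting error cannot be separated from other spread.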
